A study of Homo sapiens with 12 samples.

Results

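Nuclear pore and nuclear transport genes are described here across control siRNA and 2 siRNA mixes against YAP and TAZ. The 50 genes comprise 28 nucleoporins and 22 transport factors, out of 19775 genes with a probe set of 1 gene symbol on the array. They were chosen by gene symbol, with earlier results of these data known. For each, the probe set with the highest mean over the 12 arrays was used, so that the level picked the probe set and is itself no finding. A gene was tested if that mean lay above the 40th percentile of probe set means (5.46 log2). Of the 50 genes 49 passed, among 13225 in all. The exception was IPO11, an importin whose only probe set naming it alone lay near background (3.75 ± 0.16 log2 with control siRNA, SD, n = 4).

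The cells were MDA-MB-231, an established human triple-negative breast cancer line. Each culture received control siRNA, YAP/TAZ siRNA mix 1 or YAP/TAZ siRNA mix 2, all at 33 nM on day 2. The medium was changed on day 3, and total RNA was taken on day 4, 24 hours later. Cells had been seeded sparsely in medium with serum. Each group had 4 cultures, named A to D, which per the design text were plated and harvested side by side as biological replicates. A knockdown of this kind is transient and leaves some of the target mRNA. All cultures came from 1 line, so p-values measure the spread between parallel cultures only. RNA was read on Affymetrix U133 Plus 2.0 arrays, and the authors deposited log2 values made with RMA.

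Nuclear pores are the channels through which proteins and RNA pass the nuclear envelope. Their scaffold is made of an outer ring built from Y-shaped complexes and an inner ring, held to the membrane by transmembrane proteins. Disordered repeats rich in phenylalanine and glycine fill the central channel and let carriers through. Importins bind cargo in the cytoplasm and exportins in the nucleus, and the GTPase Ran, bound to GTP in the nucleus, sets the direction of both. YAP and TAZ are transcriptional coactivators that themselves shuttle between cytoplasm and nucleus and act mainly through TEAD factors.

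The targeted mRNAs fell under both mixes: YAP1 to 12.4% and 11.9% of control and WWTR1, which encodes TAZ, to 19.8% and 18.3%. Array medians lay between 5.69 and 5.78 log2. The 3' to 5' differences of the GAPDH and ACTB control probe sets, a sign of RNA quality, gave p-values of 0.314 or more against control in exact two-sided permutation tests (n = 4 per group, smallest possible p 0.0286). All 9 listed markers of the line passed the filter, among them VIM (14.29 ± 0.02 log2 with control siRNA) and CD44 (12.22 ± 0.07). Of the 9, 3 rose and 4 fell with mix 1, where 34.8% of all genes rose and 32.3% fell. With mix 2, 3 rose and 2 fell, where 36.7% of all genes rose and 31.9% fell. FN1 (log2 differences 1.715 and 1.39) and S100A4 (1.665 and 1.41) rose most, and AXL (-1.11 and -0.405) fell most. Of 10 listed epithelial and luminal genes, CDH1 (3.98 ± 0.21), PGR (3.56 ± 0.05), FOXA1 and KRT14 lay below the filter. The other 6 passed it, with control means of 8.20 log2 for GATA3, 7.76 for ERBB2, 7.61 for CLDN4, 6.31 for ESR1, 6.08 for KRT5 and 6 for CLDN3. Of 12 genes of cell division, among them MKI67 and CDK1, all 12 fell under each mix, with median log2 differences of -1.92 and -2.52. Over all genes tested, 32.3% fell with mix 1 and 31.9% with mix 2. Whether less division has a part in the falls of pore and transport genes was not tested, nor was a part of the markers of other cells given next. Some markers of other cell types rose with both mixes, as did 27.3% of all genes tested. Of the leukocyte list, 3 of 4 tested genes rose (CD3D, CD14 and LYZ). The filter uses the mean of all 12 arrays, so a dim gene can pass it by rising. CD14 (5.15 log2 with control siRNA) and LYZ (4.96) passed only through the knockdown arrays, so the filter favoured their rise. The list's summed linear level was 238 to 261 with control siRNA, 768 to 977 with mix 1, then 850 to 999 with mix 2. LYZ had the largest rise of its tested genes, to 9.14 and 9.18 log2, and the sum follows this 1 gene in large part. The defining leukocyte gene PTPRC stayed below the filter (mean log2 level 4.04, 3.80 and 4.47). PECAM1 was the 1 of 2 tested endothelial genes that rose, with CDH5 below the filter and a summed level of 198 to 243 with control siRNA, 482 to 548 with mix 1, then 343 to 395 with mix 2. Both tested fibroblast genes, COL1A1 and PDGFRB, rose, with COL1A2, DCN and LUM below the filter and a summed level of 237 to 309 with control siRNA, 732 to 977 with mix 1, then 571 to 637 with mix 2. LUM, though below the filter and not tested, was higher on all arrays of both mixes than on any control array (3.19 ± 0.15 log2 with control siRNA, 4.25 ± 0.20 under mix 1 and 5.41 ± 0.13 under mix 2). Of 6 tested epithelial and luminal genes, CLDN4 rose and GATA3 fell with mix 1, and CLDN4 and ERBB2 rose with mix 2, with a summed level of 951 to 1037 with control siRNA, 1084 to 1177 with mix 1, then 1139 to 1220 with mix 2.

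Messenger RNAs of the nuclear pore and its carriers were lower after YAP/TAZ knockdown with either mix. With mix 1, 44 of 49 tested genes fell and 1 rose (limma, Benjamini-Hochberg adjusted p below 0.05 over 13225 genes), where 32.3% of all genes fell and 34.8% rose. With mix 2, 39 fell and 2 rose, where 31.9% of all genes fell and 36.7% rose. The median log2 difference from control was -0.78 with mix 1 and -0.69 with mix 2, against 0.005 and 0.03 over all genes tested. Under both mixes 39 genes fell, which 23.9% of all genes did, and 1 rose, which 27.3% did. The genes were listed with earlier results of these data known, so these counts describe the list and are no independent test of it. Both comparisons use the same 4 control arrays, so that their agreement is not independent. The usual RMA gives all arrays 1 distribution, so a loss of all mRNAs together would not be seen, and less of an mRNA in each cell cannot be told apart from fewer cells that make it.

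**Figure D1:**
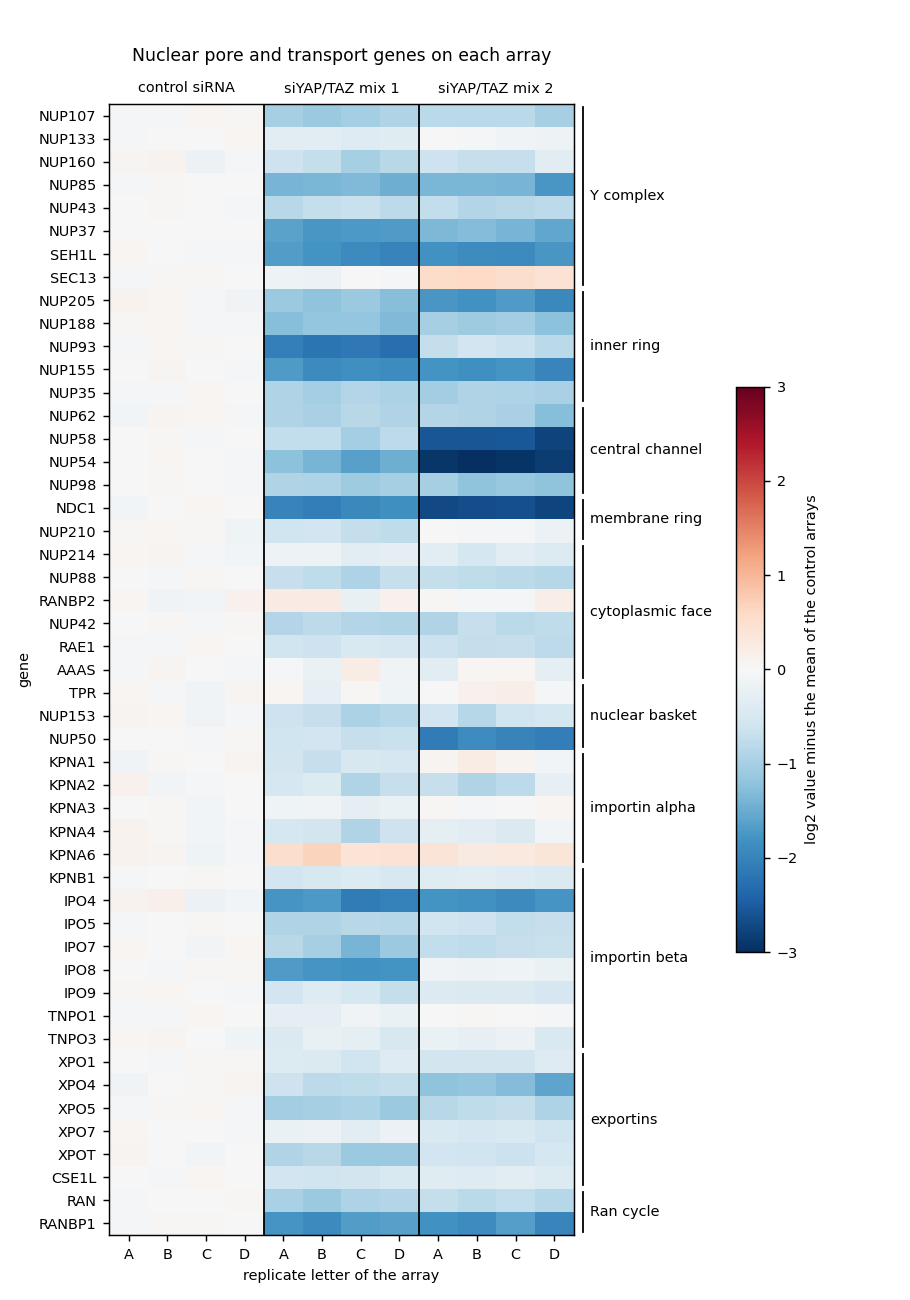
Log2 value on each array minus the mean of the 4 control arrays, for the 49 tested genes in rows grouped by role and the 12 arrays in columns; blue is lower and red higher than control. Most rows are blue on all 8 knockdown arrays, while KPNA6 is red on all 8 and SEC13 on the 4 with mix 2.

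At least 2-fold lower were 15 genes with mix 1 (8.28% of all genes) and 15 with mix 2 (9.35% of all genes). None of the 49 was at least 2-fold higher under either mix, where 1070 of all 13225 genes were with mix 1 and 1198 with mix 2. For 44 genes every mix 1 array lay below all 4 control arrays, where 31% of all genes did so, and for 1 gene above them (32.3% of all genes). With mix 2 this held for 38 genes below (31% of all genes) and 2 above (33.8% of all genes). Replicates lay close together: the SD over 4 arrays had a median of 0.05 log2 with control siRNA and of 0.09 under either mix, and the highest was 0.29, for KPNA2 with mix 2. Nucleoporins had a median log2 difference of -0.84 with mix 1 (24 of 28 lower, none higher) and -0.83 with mix 2 (22 lower, 1 higher). Transport factors had a median of -0.62 with mix 1 (20 of 21 lower, 1 higher) and -0.50 with mix 2 (17 lower, 1 higher).

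**Figure D2:**
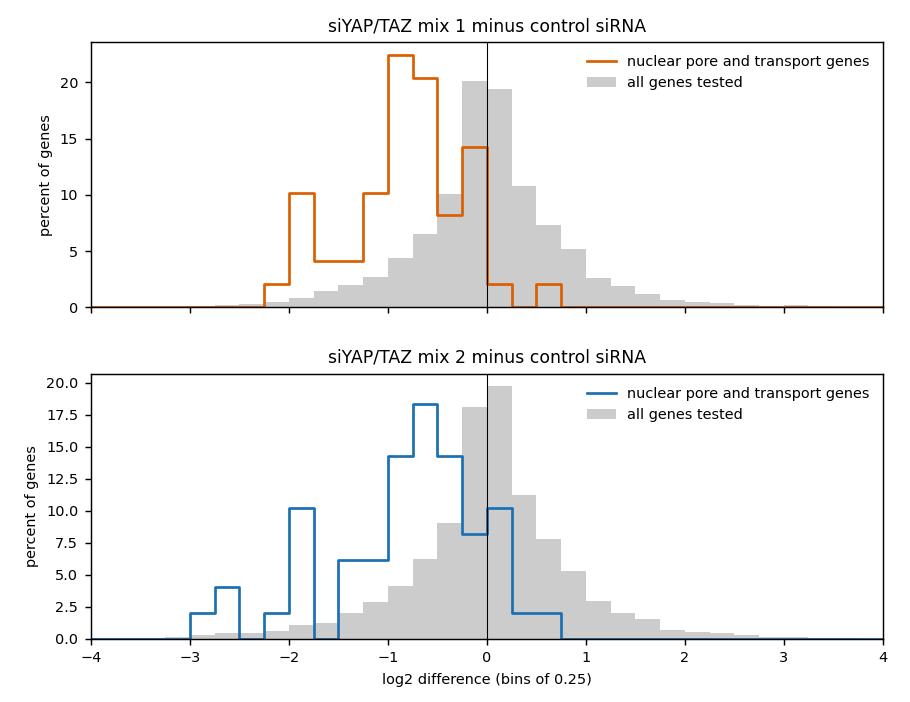
Share of genes (percent, vertical axis) by log2 difference from control siRNA in bins of 0.25 (horizontal axis), with mix 1 above and mix 2 below; grey bars are the 13225 genes tested and coloured lines the 49 nuclear pore and transport genes. The lines lie to the left of the bars, with medians of -0.78 and -0.69; up to 29 genes per panel lie outside the range drawn.

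The Y complex forms the outer rings of the pore. With mix 1, 7 of its 8 genes fell and none rose, with a median log2 difference of -0.90; with mix 2, 6 fell and 1 rose (-0.83). SEH1L read 12.41, 12.34, 12.32 and 12.32 log2 on control arrays A to D, 10.66, 10.56, 10.43 and 10.35 on those with mix 1 and 10.53, 10.46, 10.43 and 10.60 with mix 2. SEH1L, a small propeller protein of the complex that also serves in nutrient signalling to mTORC1, was thus lower on all 8 knockdown arrays than on any control array, at 27.8% and 27.9% of control. The log2 differences of SEH1L were -1.85 with mix 1 (SE 0.07, limma adjusted p = 1.23e-11) and -1.84 with mix 2 (SE 0.07, adjusted p = 8.96e-12). NUP107 read 11.25, 11.27, 11.36 and 11.35 log2 on control arrays A to D, 10.32, 10.19, 10.29 and 10.40 on those with mix 1 and 10.49, 10.51, 10.51 and 10.32 with mix 2. This core scaffold protein fell in both groups without overlap, by log2 differences of -1.01 with mix 1 (SE 0.06, limma adjusted p = 2.64e-09) and -0.85 with mix 2 (SE 0.06, adjusted p = 1.57e-08). NUP37 (-1.69 and -1.41 log2 difference with mix 1 and mix 2) and NUP85 (-1.39 and -1.47) had larger falls than NUP107, and NUP43 (-0.75 and -0.80) and NUP160 (-0.79 and -0.58) smaller ones by their brightest probe sets. The 2 other NUP160 probe sets gave -1.04 and -0.85 with mix 1 and -1.28 and -1.34 with mix 2, where they are larger falls than that of NUP107. The other NUP43 probe set, much dimmer, gave -1.04 with mix 1, also a larger fall than that of NUP107, and -0.785 with mix 2. NUP133, which links neighbouring Y complexes, fell with mix 1 by a log2 difference of -0.35 (adjusted p = 2.45e-05) but was at -0.08 with mix 2 (adjusted p = 0.196, 95% confidence interval -0.19 to 0.03). SEC13 read 11.96, 12.04, 12.05 and 12.01 log2 on control arrays A to D, 11.86, 11.85, 12.03 and 11.95 on those with mix 1 and 12.57, 12.62, 12.54 and 12.44 with mix 2. SEC13, which the pore shares with the COPII coat of vesicles leaving the endoplasmic reticulum, was the 1 member of the complex that rose: its mix 2 arrays lay above all others (log2 difference 0.53, SE 0.06, adjusted p = 1.47e-06). With mix 1 SEC13 was at -0.09 (adjusted p = 0.187, interval -0.22 to 0.03).

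All 5 genes of the inner ring, the scaffold that lines the channel, fell under both mixes, with median log2 differences of -1.23 and -1.08. NUP93 read 10.28, 10.38, 10.36 and 10.31 log2 on control arrays A to D, 8.29, 8.15, 8.18 and 8.08 on those with mix 1 and 9.62, 9.75, 9.68 and 9.53 with mix 2. NUP93, which ties the inner ring to the central channel, had the largest fall of all 49 genes with mix 1, to 22.4% of control. With mix 2 its arrays lay between the other groups, at 62.1%. Its log2 differences were -2.16 with mix 1 (SE 0.06, limma adjusted p = 1.04e-12) and -0.69 with mix 2 (SE 0.06, adjusted p = 1.52e-07). NUP155 read 10.11, 10.19, 10.09 and 10.04 log2 on control arrays A to D, 8.41, 8.19, 8.26 and 8.22 on those with mix 1 and 8.32, 8.26, 8.33 and 8.12 with mix 2. The mixes overlapped for NUP155, a scaffold protein that bridges ring and membrane, and the log2 differences from control were -1.84 with mix 1 (SE 0.07, limma adjusted p = 8.57e-12) and -1.85 with mix 2 (SE 0.07, adjusted p = 5.39e-12). NUP205 fell by log2 differences of -1.18 and -1.80, NUP188 by -1.23 and -1.08, and the small membrane-binding NUP35 by -0.94 and -0.96.

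The 4 genes of the central channel also fell under both mixes, with median log2 differences of -0.94 and -1.88. NUP62, NUP54 and NUP58 form the channel complex whose repeats bind carriers. NUP54 read 11.40, 11.43, 11.36 and 11.33 log2 on control arrays A to D, 10.15, 9.99, 9.76 and 9.91 on those with mix 1 and 8.47, 8.17, 8.43 and 8.54 with mix 2. NUP54 had the largest fall of all 49 genes with mix 2, to 12.7% of control, and stood at 37.2% with mix 1, with no overlap among the 3 groups. Its log2 differences were -1.43 with mix 1 (SE 0.09, limma adjusted p = 2.31e-09) and -2.98 with mix 2 (SE 0.09, adjusted p = 8.9e-13). NUP58 read 9.76, 9.80, 9.74 and 9.78 log2 on control arrays A to D, 9.03, 9.03, 8.75 and 8.98 on those with mix 1 and 7.20, 7.20, 7.22 and 7.0 with mix 2. The brightest NUP58 probe set gave log2 differences of -0.82 with mix 1 (SE 0.07, limma adjusted p = 9.82e-08) and -2.62 with mix 2 (SE 0.07, adjusted p = 4e-13), but its 3 other probe sets gave -1.07 to -1.49 and -1.21 to -1.40. NUP62 read 10.68, 10.84, 10.82 and 10.71 log2 on control arrays A to D, 9.87, 9.78, 9.92 and 9.86 on those with mix 1 and 9.88, 9.86, 9.80 and 9.49 with mix 2. For NUP62 the mixes overlapped, and the log2 differences were -0.91 with mix 1 (SE 0.08, limma adjusted p = 1.35e-07) and -1.0 with mix 2 (SE 0.08, adjusted p = 3.81e-08). NUP98 read 10.17, 10.18, 10.14 and 10.11 log2 on control arrays A to D, 9.25, 9.22, 9.08 and 9.16 on those with mix 1 and 9.15, 8.94, 9.01 and 8.95 with mix 2. The NUP98 gene encodes both a repeat nucleoporin and, from the same precursor, a part of the Y complex. It fell without overlap by log2 differences of -0.97 with mix 1 (SE 0.06, limma adjusted p = 2.39e-09) and -1.14 with mix 2 (SE 0.06, adjusted p = 3.63e-10).

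NDC1 and NUP210 span the pore membrane. NDC1 read 11.92, 11.98, 12.06 and 12.01 log2 on control arrays A to D, 10.00, 9.92, 10.07 and 10.15 on those with mix 1 and 9.29, 9.34, 9.36 and 9.24 with mix 2. By brightest probe sets NDC1, which anchors the pore, had the lowest mean of the 2 log2 differences among the genes that fell under both mixes. Its log2 differences were -1.96 with mix 1 (SE 0.06, limma adjusted p = 1.87e-12) and -2.69 with mix 2 (SE 0.06, adjusted p = 8.24e-14), so that 25.7% and 15.6% of the control level were left. The other NDC1 probe set gave -1.86 with mix 1 and -1.89 with mix 2, the latter a smaller fall. NUP210 read 7.72, 7.75, 7.73 and 7.55 log2 on control arrays A to D, 7.08, 7.12, 6.98 and 6.93 on those with mix 1 and 7.67, 7.64, 7.64 and 7.51 with mix 2. The glycoprotein NUP210 fell with mix 1 (log2 difference -0.66, SE 0.07, adjusted p = 3.9e-07). With mix 2 it was at -0.07 (adjusted p = 0.348, interval -0.21 to 0.07), and it passed there with the mean of its probe sets (-0.16, adjusted p = 0.0319) or without shared probe sets (-0.26, adjusted p = 0.044).

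**Figure D3:**
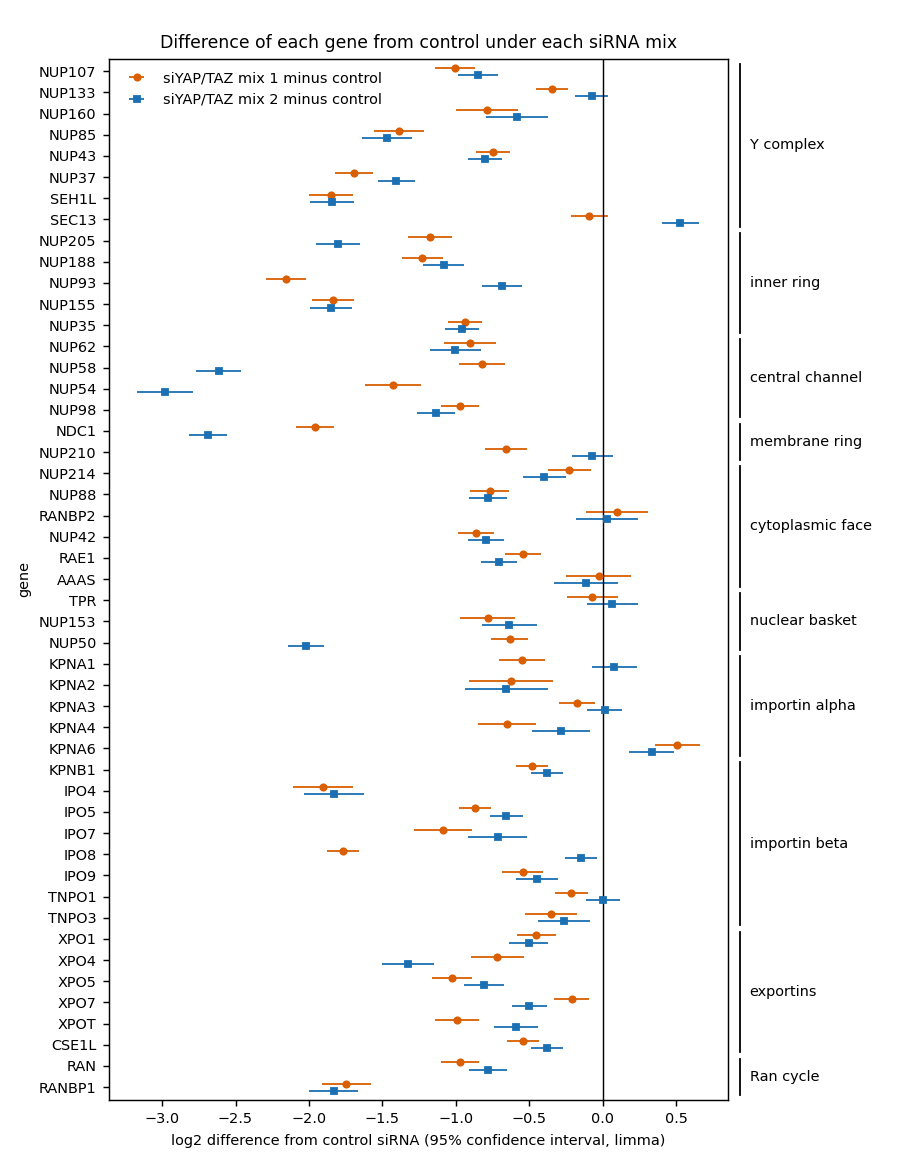
Log2 difference from control siRNA (horizontal axis) of each of the 49 tested genes (vertical axis, by role), with 95% confidence intervals from limma; circles are mix 1 and squares mix 2. Points lie left of 0 for most genes, at about 0 under both mixes for RANBP2, AAAS and TPR, and right of 0 under both mixes for KPNA6.

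On the cytoplasmic face, 4 of 6 genes fell under each mix and none rose, with median log2 differences of -0.39 and -0.55. These were NUP88 (-0.77 and -0.78 log2 difference with mix 1 and mix 2), NUP42 (-0.86 and -0.80), the mRNA export factor RAE1 (-0.54 and -0.71) and NUP214 (-0.23 and -0.40), which carries the docking site for the export helicase. The other NUP214 probe sets disagreed with this size: 1 gave -0.97 and -1.44, and another gave 0.10 and -0.04, the latter pair not past the threshold. RANBP2 read 10.64, 10.48, 10.51 and 10.70 log2 on control arrays A to D, 10.82, 10.82, 10.37 and 10.71 on those with mix 1 and 10.62, 10.52, 10.53 and 10.78 with mix 2. RANBP2, the filament protein with SUMO ligase activity, overlapped with control under both mixes (log2 differences 0.10, interval -0.11 to 0.31, and 0.03, interval -0.18 to 0.24). It passed as higher with mix 1 once mix 1 replicate C was left out (0.20, adjusted p = 0.0361). Its 1 probe set not of the kind shared with related genes, which number several for RANBP2, gave falls instead (-0.66, adjusted p = 1.82e-06 with mix 1, and -0.55, adjusted p = 1.18e-05 with mix 2). AAAS, whose product is bound to the pore through NDC1, did not pass under either mix (log2 differences -0.03, interval -0.25 to 0.19, and -0.12, interval -0.34 to 0.11).

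The nuclear basket reaches into the nucleus and takes part in mRNA export and in sorting carriers. TPR read 10.77, 10.68, 10.62 and 10.81 log2 on control arrays A to D, 10.77, 10.47, 10.75 and 10.60 on those with mix 1 and 10.73, 10.84, 10.92 and 10.65 with mix 2. TPR, the coiled-coil protein that builds the basket, overlapped with control under both mixes (log2 differences -0.07, interval -0.24 to 0.10, and 0.07, interval -0.11 to 0.24). Without shared probe sets another TPR probe set passed as higher with mix 2 (0.62, adjusted p = 2.67e-05). NUP153 read 11.74, 11.72, 11.54 and 11.62 log2 on control arrays A to D, 11.03, 10.97, 10.70 and 10.79 on those with mix 1 and 11.07, 10.81, 11.06 and 11.13 with mix 2. NUP153, which docks importins on the nuclear side, fell without overlap, by log2 differences of -0.78 with mix 1 (SE 0.09, limma adjusted p = 1.46e-06) and -0.64 with mix 2 (SE 0.09, adjusted p = 1.16e-05). NUP50 read 11.05, 11.03, 11 and 11.06 log2 on control arrays A to D, 10.44, 10.45, 10.35 and 10.36 on those with mix 1 and 8.94, 9.15, 9.02 and 8.95 with mix 2. NUP50, a cofactor that helps release cargo from importin alpha, fell to 64.4% of control with mix 1 and to 24.7% with mix 2, with no overlap among the 3 groups. From control it differed by log2 values of -0.64 with mix 1 (SE 0.06, limma adjusted p = 1.56e-07) and -2.02 with mix 2 (SE 0.06, adjusted p = 5.87e-13).

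**Figure D4:**
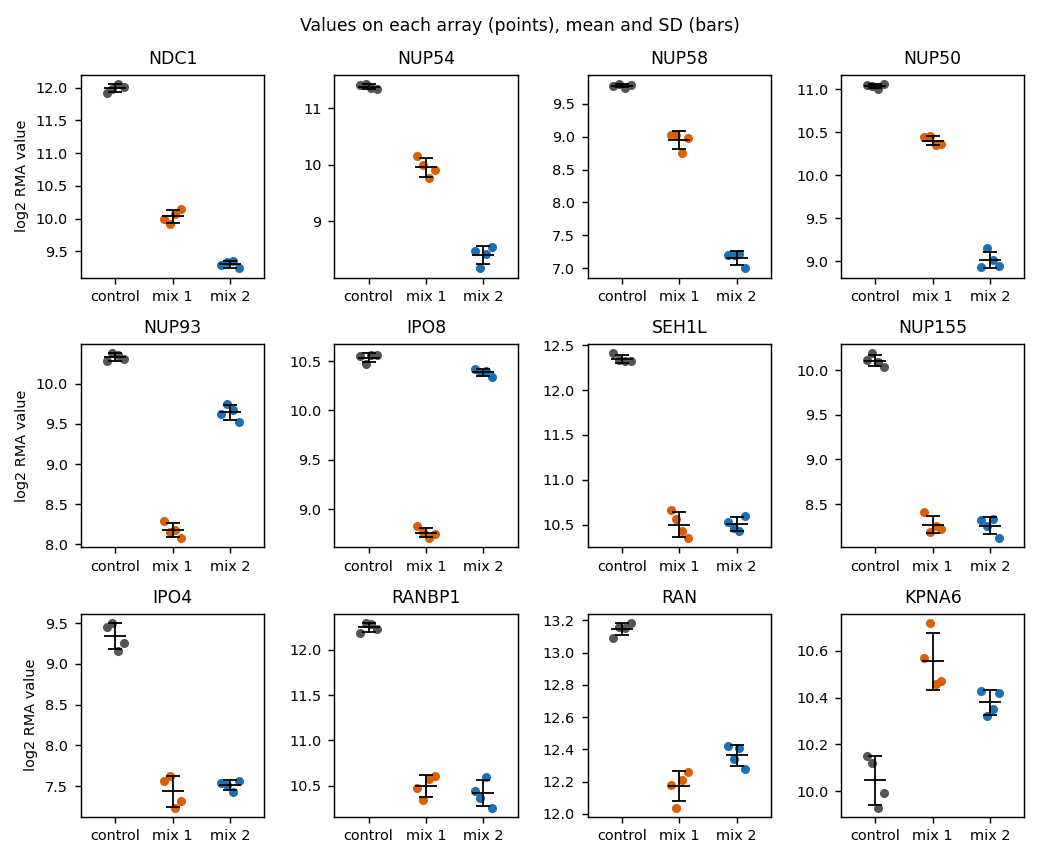
Log2 RMA value (vertical axis, own range per gene and not from 0) on each of the 4 arrays per group, as points, with the mean and SD as bars, for 12 genes. NDC1, NUP54, NUP58 and NUP50 are lowest with mix 2, NUP93 and IPO8 are lowest with mix 1, and KPNA6 is higher than control with both.

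Importin alpha proteins recognise the classical nuclear localisation signal and join cargo to importin beta. Of the 5 genes, 4 fell and 1 rose with mix 1 (median log2 difference -0.55), and 2 fell and 1 rose with mix 2 (0.01). KPNA2 read 13.20, 12.98, 13.03 and 13.04 log2 on control arrays A to D, 12.57, 12.66, 12.16 and 12.36 on those with mix 1 and 12.36, 12.17, 12.27 and 12.82 with mix 2. KPNA2, the form typical of dividing cells, fell without overlap under both mixes although its mix 2 arrays had the largest SD of the 49 genes. The log2 differences were -0.62 with mix 1 (SE 0.13, limma adjusted p = 0.000669) and -0.66 with mix 2 (SE 0.13, adjusted p = 0.000421). Its other probe set gave -1.06 and -1.15. KPNA6 read 10.15, 10.12, 9.93 and 9.99 log2 on control arrays A to D, 10.57, 10.72, 10.46 and 10.47 on those with mix 1 and 10.43, 10.32, 10.35 and 10.42 with mix 2. KPNA6 was the 1 gene of the 49 that rose under both mixes, by log2 differences of 0.51 with mix 1 (SE 0.07, limma adjusted p = 1.5e-05) and 0.33 with mix 2 (SE 0.07, adjusted p = 0.000706). Both of its other probe sets of the unshared kind rose too, while a dimmer shared one gave -0.28 with mix 1 (adjusted p = 0.0269) and -0.18 with mix 2 (adjusted p = 0.151). KPNA1 read 9.17, 9.30, 9.28 and 9.35 log2 on control arrays A to D, 8.73, 8.59, 8.80 and 8.78 on those with mix 1 and 9.35, 9.50, 9.36 and 9.20 with mix 2. KPNA1 fell with mix 1 (log2 difference -0.55, adjusted p = 7.67e-06) and was at 0.08 with mix 2 (adjusted p = 0.363, interval -0.08 to 0.23). Its probe sets disagreed: with their mean the mix 1 difference did not pass (-0.10, adjusted p = 0.103) and the mix 2 difference passed as a rise (0.21, adjusted p = 0.00182). KPNA4 fell under both mixes (-0.66 and -0.28 log2 difference), though its mix 2 arrays overlapped with control. KPNA3 fell with mix 1 (-0.17, adjusted p = 0.0126) and was at 0.01 with mix 2 (interval -0.11 to 0.13).

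All 8 tested members of the importin beta group fell with mix 1 and 7 with mix 2, with median log2 differences of -0.71 and -0.41. KPNB1 read 13.18, 13.20, 13.23 and 13.21 log2 on control arrays A to D, 12.64, 12.73, 12.80 and 12.73 on those with mix 1 and 12.85, 12.86, 12.81 and 12.78 with mix 2. KPNB1, the main import carrier, fell by log2 differences of -0.48 with mix 1 (SE 0.05, limma adjusted p = 8.46e-07) and -0.38 with mix 2 (SE 0.05, adjusted p = 9.38e-06). Its brightest probe set of the unshared kind did not pass with mix 1 (-0.12, adjusted p = 0.202) and fell with mix 2 (log2 difference -0.74, adjusted p = 2.1e-06 over all probe sets). IPO4 read 9.45, 9.50, 9.16 and 9.26 log2 on control arrays A to D, 7.57, 7.63, 7.24 and 7.32 on those with mix 1 and 7.54, 7.52, 7.43 and 7.57 with mix 2. IPO4, which carries ribosomal proteins and histones, had the largest mean fall among the importins, to 26.7% and 28.2% of control. Its differences on the log2 scale were -1.90 with mix 1 (SE 0.09, limma adjusted p = 2.13e-10) and -1.83 with mix 2 (SE 0.09, adjusted p = 2.72e-10). IPO8 read 10.55, 10.47, 10.56 and 10.56 log2 on control arrays A to D, 8.83, 8.77, 8.71 and 8.75 on those with mix 1 and 10.42, 10.39, 10.40 and 10.34 with mix 2. IPO8, which binds Argonaute proteins and SMADs, fell to 29.3% of control with mix 1 and to 90.3% with mix 2, where its 4 arrays still lay below control. The fit gave log2 differences of -1.77 with mix 1 (SE 0.05, limma adjusted p = 8.71e-13) and -0.15 with mix 2 (SE 0.05, adjusted p = 0.0176). IPO7 (-1.09 and -0.71 log2 difference with mix 1 and mix 2) and IPO5 (-0.87 and -0.66), carriers of ribosomal proteins among other cargo, fell under both, as did IPO9 (-0.55 and -0.45) and TNPO3 (-0.35 and -0.27), the carrier of serine and arginine rich splicing factors. TNPO1, which carries hnRNP proteins, fell with mix 1 (-0.21, adjusted p = 0.00233) and was at 0.0025 with mix 2 (interval -0.11 to 0.12). With mix 2 its other probe sets disagreed past the threshold (adjusted over all probe sets). A probe set of the unshared kind fell (-0.46, adjusted p = 0.00153), another of that kind rose (0.27, adjusted p = 0.00497), and so did a shared probe set (0.24, adjusted p = 0.00647).

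All 6 exportin genes fell under both mixes, with median log2 differences of -0.63 and -0.55. XPO1 read 12.69, 12.64, 12.73 and 12.74 log2 on control arrays A to D, 12.30, 12.26, 12.11 and 12.32 on those with mix 1 and 12.15, 12.16, 12.15 and 12.32 with mix 2. XPO1, the export receptor for leucine-rich signals, which also carries YAP out of the nucleus, fell without overlap by log2 differences of -0.45 with mix 1 (SE 0.06, limma adjusted p = 1.33e-05) and -0.51 with mix 2 (SE 0.06, adjusted p = 4.02e-06). CSE1L read 12.95, 12.90, 13.01 and 12.96 log2 on control arrays A to D, 12.39, 12.36, 12.40 and 12.49 on those with mix 1 and 12.58, 12.56, 12.61 and 12.54 with mix 2. CSE1L, which returns importin alpha to the cytoplasm, fell by log2 differences of -0.55 with mix 1 (SE 0.05, limma adjusted p = 2.12e-07) and -0.38 with mix 2 (SE 0.05, adjusted p = 8.69e-06). XPO5, the carrier of microRNA precursors, had log2 differences of -1.02 and -0.81, and the tRNA exporter XPOT of -0.99 and -0.59. XPO4 (-0.72 and -1.32) and XPO7 (-0.21 and -0.50), which carry other proteins, also fell.

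Both genes of the Ran cycle fell. RAN read 13.09, 13.16, 13.15 and 13.18 log2 on control arrays A to D, 12.18, 12.04, 12.21 and 12.26 on those with mix 1 and 12.42, 12.34, 12.41 and 12.28 with mix 2. RAN, the GTPase that powers transport, stood at 51% and 58.1% of control without overlap. The log2 differences were -0.97 with mix 1 (SE 0.06, limma adjusted p = 1.93e-09) and -0.78 with mix 2 (SE 0.06, adjusted p = 1.94e-08). The other RAN probe set gave larger falls, of -1.53 with mix 1 and -1.29 with mix 2. RANBP1 read 12.18, 12.29, 12.28 and 12.23 log2 on control arrays A to D, 10.48, 10.34, 10.57 and 10.61 on those with mix 1 and 10.44, 10.36, 10.60 and 10.26 with mix 2. RANBP1, which helps to hydrolyse the GTP on Ran in the cytoplasm, was left at 29.8% and 28.1% of control. The mixes overlapped, and log2 differences from control were -1.75 with mix 1 (SE 0.08, limma adjusted p = 6.28e-11) and -1.83 with mix 2 (SE 0.08, adjusted p = 3.07e-11). Its other probe sets gave smaller falls, of -0.52 to -0.74 and -0.58 to -0.67.

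The mixes differed in 26 of the 49 genes: 17 were higher and 9 lower with mix 2 than with mix 1. These shares are near those over all genes, of which 28.7% were higher and 25% lower, and nothing particular to these genes is read from them. IPO8 (1.62 log2 difference, mix 2 minus mix 1, SE 0.05, adjusted p = 8.92e-12) and NUP93 (1.47, SE 0.06, adjusted p = 1.54e-10) were more than 2-fold higher with mix 2, followed by KPNA1 (0.63) and SEC13 (0.62). NUP58 (-1.79, SE 0.07, adjusted p = 8.58e-11), NUP54 (-1.55, SE 0.09, adjusted p = 2.95e-09) and NUP50 (-1.39, SE 0.06, adjusted p = 1.3e-10) were more than 2-fold lower with mix 2, followed by NDC1 (-0.73). For NUP58 and NDC1 this rested on the brightest probe set: the 3 other NUP58 probe sets differed between the mixes by -0.14 to 0.21 and the other NDC1 probe set by -0.03, none past the threshold. For IPO8 the other probe set above the filter, much dimmer, differed by 0.33 and did not pass (adjusted p = 0.0976 over all probe sets). Of the 5 other KPNA1 probe sets, 4 were higher with mix 2 (0.32 to 0.58) and 1 was lower (-0.49, adjusted p = 0.000345). NUP93, NUP54 and SEC13 had no other probe set above the filter. For NUP50 the other probe sets above the filter were at -1.49, -0.55 and -0.01, of which the last did not pass. The genes that passed under 1 mix alone were NUP133, SEC13, NUP210, KPNA1, KPNA3 and TNPO1. All 6 differed between the mixes by the test of that difference, as did 2309 of the 3016 such genes among all tested. For TNPO1 and NUP210 that difference was lost with the brightest unshared probe set in use (-0.075, adjusted p = 0.558, and 0.09, adjusted p = 0.529), and for NUP133 with the mean of the probe sets (0.14, adjusted p = 0.1). For 23 genes the difference did not pass, with 95% confidence intervals that reached at most from -0.33 to 0.42 log2.

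Some smaller differences between the mixes lay near the threshold, and leaving out 1 array moved their adjusted p across it. NUP107 (0.16, adjusted p = 0.0495) was then at 0.12 to 0.20 and no longer passed without control A (0.06), control B (0.0606), control C (0.0597), control D (0.0602), mix 1 A (0.0718), mix 1 B (0.144), mix 1 C (0.0801), mix 2 A (0.106), mix 2 B (0.117) or mix 2 C (0.118), with the limma adjusted p in brackets. The control arrays do not enter the NUP107 difference, which was the same without any of them, and only its p moved. NUP98 (-0.17, adjusted p = 0.033) was at -0.21 to -0.14 and did not pass without mix 1 A (0.0943), mix 1 B (0.0779), mix 2 B (0.0941), mix 2 C (0.0628) or mix 2 D (0.0657). RAE1 (-0.17, adjusted p = 0.0247) was at -0.19 to -0.14 and did not pass without mix 1 C (0.0649), mix 1 D (0.0629) or mix 2 D (0.0523). RAN (0.19, adjusted p = 0.0145) was at 0.15 to 0.22 and did not pass without mix 1 B (0.0503). Genes that did not pass with all arrays passed without 1 of them: KPNA6 without control C (0.0487), mix 1 C (0.0325) or mix 1 D (0.0401), NUP214 without mix 1 C (0.0215) or mix 2 C (0.0408), NUP160 without mix 1 A (0.0474), NUP153 without mix 2 B (0.0484) and NUP188 without mix 2 D (0.0115).

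Most of these genes were read by several probe sets, 148 in all. Of the 38 genes with at least 2 probe sets above the filter, 31 had differences of 1 sign in all of them with mix 1, and 32 with mix 2. A probe set past the threshold opposite to a brightest one that also passed occurred with mix 1 for 3 genes, KPNA1, KPNA6 and IPO9, and with mix 2 for none. KPNA1 had 2 such probe sets, at log2 differences of 0.27 and 0.24 against -0.55 for the brightest; with mix 2, where the brightest did not pass, these were at 0.68 and -0.25 and passed in opposite directions. KPNA6 had the 1 given above. For IPO9 another probe set rose with mix 1 (0.52, adjusted p = 1.93e-05) against -0.55 for the brightest, and the remaining ones gave -0.29 and -0.33. The size of a fall also varied. The other NUP188 probe set was at -0.10 and -0.06, far from the brightest. For XPO1 the probe sets ranged from -0.04 to -0.57 with mix 1 and from -0.02 to -0.51 with mix 2. For XPO5 they gave -1.02 to -2.07 with mix 1, for CSE1L -0.38 to -1.09 with mix 2, and for IPO5 -0.21 to -1.07 and -0.69 to 0.08.

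**Figure D5:**
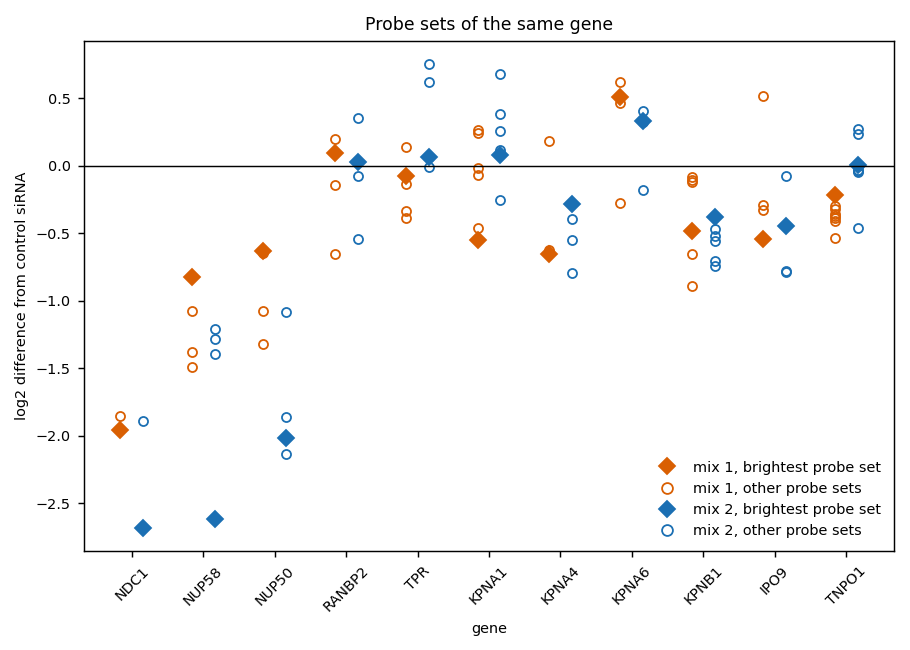
Log2 difference from control siRNA (vertical axis) of each probe set above the filter, for 11 genes whose probe sets differ in direction or size (horizontal axis); filled diamonds are the brightest probe set, which stands for the gene, and open circles the others. With mix 2 the brightest probe sets of NDC1 and NUP58 lie below the others, and for KPNA1 probe sets lie on both sides of 0.

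The DNA before the start of these genes was read from RefSeq (GRCh38.p14), which held 56 start sites for 45 of the 50 genes; NUP43, XPO7, KPNB1, RANBP1 and KPNA4 were not matched. The 250 bases before each start were searched on both strands for the letters bound by factors of this pathway or common at promoters. The TEAD letters GGAATG were in 16.1% of the 56 windows and in 9.91% of 15533 windows of the genes tested. For the AP-1 letters TGANTCA the shares were 5.36% and 4.65%, and for the E-box CACGTG, which MYC can bind, 12.5% and 8.06%. E2F letters (any of TTCCCGC and TTGGCGC as well as TTCGCGC and also TTGCCGC) were in 21.4% and 15.3%. The NF-Y letters CCAAT were in 39.3% and 32.7%, the ETS letters CCGGAAG in 26.8% and 13.2%, and the NRF1 core GCATGCG in 7.14% and 4.74%. In the 42 windows of genes that fell under both mixes, E2F letters were in 14.3%, below the share of the genes tested. There the shares were 16.7% for TEAD, 4.76% for AP-1, 14.3% for the E-box, 45.2% for NF-Y, 31% for ETS and 7.14% for NRF1 letters. These shares were not tested against each other, and several windows of 1 gene overlap. A match describes letters, not a bound site.

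By brightest probe sets, NDC1 had the largest mean fall and NUP54 the largest fall under mix 2. KPNA2 and CSE1L are 2 genes of importin alpha transport with TEAD letters, and KPNA6 is the gene that rose under both mixes. Shown are the windows of these genes, 5' to 3' on the strand of the gene, with the matches in capitals.
NDC1, GRCh38.p14 chr1:53838297-53838546, minus strand: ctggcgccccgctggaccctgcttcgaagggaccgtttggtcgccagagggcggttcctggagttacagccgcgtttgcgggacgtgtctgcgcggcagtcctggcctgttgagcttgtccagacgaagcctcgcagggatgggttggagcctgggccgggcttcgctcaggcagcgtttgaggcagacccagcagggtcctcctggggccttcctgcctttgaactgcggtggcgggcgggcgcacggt
NUP54, GRCh38.p14 chr4:76148398-76148647, minus strand: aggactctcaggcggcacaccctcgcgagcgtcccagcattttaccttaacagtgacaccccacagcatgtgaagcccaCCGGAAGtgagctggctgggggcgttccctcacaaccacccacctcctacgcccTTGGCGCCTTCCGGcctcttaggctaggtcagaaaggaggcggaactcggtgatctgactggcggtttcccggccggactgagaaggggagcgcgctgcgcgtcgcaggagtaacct
KPNA2, GRCh38.p14 chr17:68035485-68035734, plus strand: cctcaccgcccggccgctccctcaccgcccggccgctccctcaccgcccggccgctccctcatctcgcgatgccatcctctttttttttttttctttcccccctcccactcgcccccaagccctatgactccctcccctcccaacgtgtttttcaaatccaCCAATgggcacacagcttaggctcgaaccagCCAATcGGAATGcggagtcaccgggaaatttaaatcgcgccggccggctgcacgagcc
CSE1L, GRCh38.p14 chr20:49046062-49046311, plus strand: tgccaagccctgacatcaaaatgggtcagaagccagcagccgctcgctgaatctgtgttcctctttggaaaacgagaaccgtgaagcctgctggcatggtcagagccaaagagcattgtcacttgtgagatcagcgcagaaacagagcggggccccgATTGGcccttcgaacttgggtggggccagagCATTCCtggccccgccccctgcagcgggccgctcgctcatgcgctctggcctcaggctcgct
KPNA6, GRCh38.p14 chr1:32107806-32108055, plus strand: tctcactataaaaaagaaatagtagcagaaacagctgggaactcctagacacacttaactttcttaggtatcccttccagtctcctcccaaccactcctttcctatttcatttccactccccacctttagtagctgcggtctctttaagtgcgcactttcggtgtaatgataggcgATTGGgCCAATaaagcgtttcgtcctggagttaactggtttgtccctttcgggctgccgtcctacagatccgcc
In NUP54 the capitals are ETS letters, first 171 and 110 bases before the start, and E2F letters at 117, which end where the second ETS match begins without overlap. In KPNA2 they are NF-Y letters 89 and 58 and TEAD letters 52 bases before the start, and in CSE1L NF-Y letters at 93 and TEAD letters at 62. KPNA6 has NF-Y letters at 74 and 68, and the NDC1 window holds none of the 7 kinds of letters.

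Other genes of nuclear transport and mRNA export, a list of 41 chosen by name with earlier results of these data known, were measured for comparison. Of the 35 that were tested, 22 fell and 3 rose with mix 1 (median log2 difference -0.39), and 25 fell and 5 rose with mix 2 (-0.45). Over all genes, 32.3% fell and 34.8% rose with mix 1, and 31.9% fell and 36.7% rose with mix 2. RCC1, the exchange factor that loads Ran with GTP on chromatin, fell by log2 differences of -1.66 with mix 1 (SE 0.07, limma adjusted p = 7.41e-11) and -1.78 with mix 2 (SE 0.07, adjusted p = 2.74e-11). The mRNA export helicase DDX39A (-1.75 and -1.52 log2 difference), the THO complex gene THOC6 (-1.49 and -1.50) and NXT1 (-1.23 and -1.31), the partner of the mRNA export receptor, were next. KPNA5, an importin alpha gene outside the 50, rose from 7.77 ± 0.18 log2 with control siRNA to 9.28 ± 0.14 under mix 1 and 8.66 ± 0.12 under mix 2 (SD, n = 4 each). Its log2 differences were 1.51 with mix 1 (SE 0.10, limma adjusted p = 2.88e-09) and 0.89 with mix 2 (SE 0.10, adjusted p = 8.89e-07). GLE1, the activator of the export helicase at the cytoplasmic face, also rose under both (0.27 and 0.19).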

How the data were processed

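The 12 arrays, 4 per siRNA group, were read from 1 table of log2 values with 1 column per array. The authors deposited log2 expression values, for which the submitters' processing notes name RMA. Software, version and options of that step were not given in the sources used. Of 54675 probe sets, 41097 had a single gene symbol in GEO's annotation of the array, 1801 had several and 11777 had none here. By gene ID, 41043 symbols were updated with RefSeq (GRCh38.p14), used for names. Probe sets naming several genes, among them 5 that name a member, were left out.

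Differences were computed with limma 3.58.1 in R 4.3.3 (3 group means, 12 arrays, 9 residual degrees of freedom, default eBayes, two-sided, Benjamini-Hochberg over all 13225 genes, threshold 0.05). Errors are standard errors of that fit. Probe sets other than the brightest were fitted together over all 41091 probe sets of 1 symbol. The fit was tested on simulated data with planted changes. Arrays have no read depth, and their number limits the precision.

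The members, roles, gene lists and named genes were chosen with earlier results of these data known. Values on every array are given for the 6 lowest and up to 4 highest genes under both mixes, the 4 largest differences in each direction between the mixes, and 13 genes that stand for a role. Of the other transport genes, up to 4 per direction that changed under both mixes are named. To see whether letters pair the cultures, each array's deviations from its group mean were correlated across genes. Same-letter arrays of control and mix 1 gave 0.37, 0.251, 0.409 and 0.34 for A to D, and those of control and mix 2 0.119, 0.0338, 0.0481 and 0.212. All 4 values for mix 1 are above 0.1, so letters were taken as possibly pairing control with mix 1, but not with mix 2. That rests on the values and not the labels. Control A was correlated more with mix 1 B than with mix 1 A, so the pairing is not certain. The fit has no replicate block, and the block was an alternative. The others were no filter or one at the 60th percentile, averaging all probe sets of a gene, leaving out probe sets that can bind related genes (names ending in _s_at or _x_at), centred or quantile-normalized arrays, fitting only the 2 groups compared, eBayes with trend and robust, and leaving out each array.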

Additional observations from a re-analysis of the deposited data

Results flagged for a closer look

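In 5 cases among the 25 genes with values given for every array, 1 array of a group of 4 lay far from the others, by Dixon's 95% critical value for the gap to the nearest. NUP107 with mix 2 was 10.32 log2 on array D, where the other 3 arrays lay between 10.49 and 10.51. NUP58 with mix 2 was 7.0 log2 on array D, where the other 3 arrays lay between 7.20 and 7.22. NUP210 with control siRNA was 7.55 log2 on array D, where the other 3 arrays lay between 7.72 and 7.75. IPO8 with control siRNA was 10.47 log2 on array B, where the other 3 arrays lay between 10.55 and 10.56. XPO1 with mix 2 was 12.32 log2 on array D, where the other 3 arrays lay between 12.15 and 12.16. Chance alone would give about 1 such case in 20 groups, and 75 groups were checked here.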

How the results depend on the processing

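Over 21 alternative settings, 43 of the 45 calls with mix 1 and all 41 with mix 2 kept their direction and stayed past the threshold wherever the gene was tested; the exceptions with mix 1 were KPNA1 and KPNB1. Between the mixes 17 of 26 calls did so. With mix 1 the count of genes that fell was 33 to 44, with mix 2 32 to 39, lowest without shared probe sets, which left 37 genes. Leaving out 1 array gave 44 and 39 falls throughout, 1 to 2 rises with mix 1 (2 without mix 1 replicate C) and 2 with mix 2, and medians of -0.84 to -0.73 and -0.70 to -0.68 log2. Between the mixes it gave 15 to 18 higher and 7 to 10 lower genes and a median of 0.04 to 0.09. The mix 2 median of -0.69 moved by more than the spread between arrays to -0.67 without a filter, -0.61 with the mean of probe sets, -0.64 without shared probe sets, -0.71 with centred arrays and -0.65 with quantile normalization.

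Directions reversed only with another choice of probe sets. With probe sets averaged per gene the difference between the mixes turned for IPO9 (-0.36), KPNB1 (-0.17), NUP160 (-0.17) and KPNA4 (-0.0215). Without shared probe sets it turned for KPNB1 (-0.62) and TNPO1 (-0.075), as did RANBP2 against control (-0.66 with mix 1 and -0.55 with mix 2) and TNPO1 with mix 2 (-0.46). The cause was not tested. NUP54 was below the filter with averaged probe sets and AAAS at the 60th percentile, so neither has a value there.

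With the replicate letters as a block (replicate block), 44 genes fell with mix 1 and 39 with mix 2, as without it. Between the mixes NUP107 no longer passed (0.16, adjusted p = 0.0619), and KPNA6 (-0.17, adjusted p = 0.0331) and NUP188 (0.15, adjusted p = 0.047) passed; the block changed no other call. Same-letter correlations for the pairs with mix 2 were not all above 0.1, so for them the letters may be only names. For control and mix 1 the pairing is not certain either.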
